A study of Mus musculus with 8 samples.

Results

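Genes of hepatic fatty acid oxidation and classical targets of PPARα were compared between livers of Nnmt KO mice and control mice. The set was given by name and held 37 genes, each found once among the 33212 genes of the count table. It covers 16 genes of mitochondrial entry and β-oxidation, 12 of peroxisomal oxidation and handling, 4 acyl-CoA thioesterases, 1 enzyme of ketone bodies and 4 other targets. Nnmt encodes nicotinamide N-methyltransferase, which methylates nicotinamide and so draws on the methyl donor S-adenosylmethionine. All mice were male, of strain C57BL/6, and were fed for 8 weeks on the MCD diet, a liver-damaging diet free of methionine and choline. The Nnmt KO mice carried Alb-Cre and Nnmt flox/flox (labelled Nnmt LKO), so that Cre came from the albumin promoter and deletion was directed to hepatocytes, and other cells of the liver were not targeted. The controls were Nnmt flox/flox mice without Cre by the study's account and are labelled WT for genotype. Age is not given in the sources used here. Each genotype had 4 mice with 1 whole-liver RNA-seq library per mouse, and there was no group on a normal diet.

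PPARα is a nuclear receptor of hepatocytes that binds fatty acids, pairs with RXR, and switches on genes for burning fat during fasting. Long-chain fatty acids are activated to acyl-CoA, carried into mitochondria as acylcarnitine, and cut down by β-oxidation, whose acetyl-CoA feeds ketone body synthesis. Very long and branched chains are first shortened in peroxisomes, and thioesterases release free fatty acids from acyl-CoA. In the rodent liver the same receptor also governs peroxisome proliferation.

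Total counts ran from 75020072 to 87934362 per library, at which 3 counts stand for 0.0328 to 0.0418 CPM (counts relative to the library total after TMM scaling). After scaling, Nnmt was at 31.8, 44.8, 68.9 and 83 CPM in Nnmt KO libraries a to d and at 112, 224, 134 and 84.9 CPM in control libraries a to d. Every Nnmt KO library was below every control library, and the log2 fold change was −1.28 (SE 0.33, unadjusted p = 0.00256, adjusted p = 0.123 by the quasi-likelihood test of edgeR, Benjamini-Hochberg adjusted over all genes). Defining hepatocyte markers were abundant in all 8 libraries, with Alb between 48505 and 89471 CPM. The libraries named Nnmt KO a and control d stood apart in the sum of macrophage markers. Summed over 7 markers of Kupffer cells and macrophages, they held 1483 and 1523 CPM, against 689 to 745 CPM in the other Nnmt KO libraries and 594 to 866 CPM in the other control libraries. Lyz2 (527 and 460 CPM), Gpnmb (485 and 584 CPM), Cd68 and Cd5l were above all other libraries there. Clec4f (96.1 and 115 CPM), Timd4 (4.35 and 3.81 CPM) and Vsig4 (31.8 and 34.3 CPM) lay within the range of the others. None of these 7 markers passed an unadjusted p of 0.05 between genotypes in edgeR or DESeq2, and nor did any of 6 endothelial or 4 neutrophil markers. Of 7 lymphocyte markers, edgeR called Cd8a and Trbc2 higher at that threshold, and their list summed to 4.07 to 5.33 CPM against 2.64 to 3.38 CPM. Lrat, Reln and Dcn of 8 stellate cell markers were also higher at it (summed list, 470 to 905 against 359 to 560 CPM), as were Epcam of 6 bile duct markers (90.7 to 285 against 52.0 to 171 CPM) and Pck1 of 8 hepatocyte markers. DESeq2's test also called Cd79a of the lymphocyte list and Apob of the hepatocyte list higher and Serpina1c of the hepatocyte list lower before adjustment, and it called Cd8a after adjustment. The part of these cells in the results was not tested. In whole liver, fewer cells of a type and less RNA per cell cannot be told apart.

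A few members stood well above the control level in Nnmt KO mice, while most of the set, the mitochondrial genes among them, did not pass the test. All 37 members had enough counts to be tested. In Nnmt KO mice, 24 members were higher and 13 lower, where 52.3% of all 15291 genes tested were higher and 47.7% lower. The median log2 fold change was 0.10 over the members and 0.02 over all genes. By edgeR's test, 7 members passed an unadjusted threshold of 0.05 on the higher side (Pdk4, Acot1, Ehhadh, Acot2, Acot4, Acot3 and Crat) and 0 on the lower side. Over all genes tested, 12.6% passed this threshold, 5.45% on the higher and 7.13% on the lower side. After adjustment over all genes, only Pdk4 stayed under 0.05 (adjusted p = 0.0496), where 0.32% of all genes did. Pdk4 lost this call with other scaling, without the filter on low counts, and when any library but Nnmt KO a was left out, while DESeq2's test called 4 members, Acot1, Pdk4, Ehhadh and Acot2, where it called 3.32% of all genes. The 4 Nnmt KO libraries lay above all 4 control libraries for 5 members, Acot1, Acot2, Acot3, Ehhadh and Pdk4, a pattern shown by 3.34% of all genes. No member lay wholly below, against 4.81% of all genes (8.16% in either direction). As the members were chosen with earlier results of these data known, these shares give no independent comparison.

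**Figure D1:**
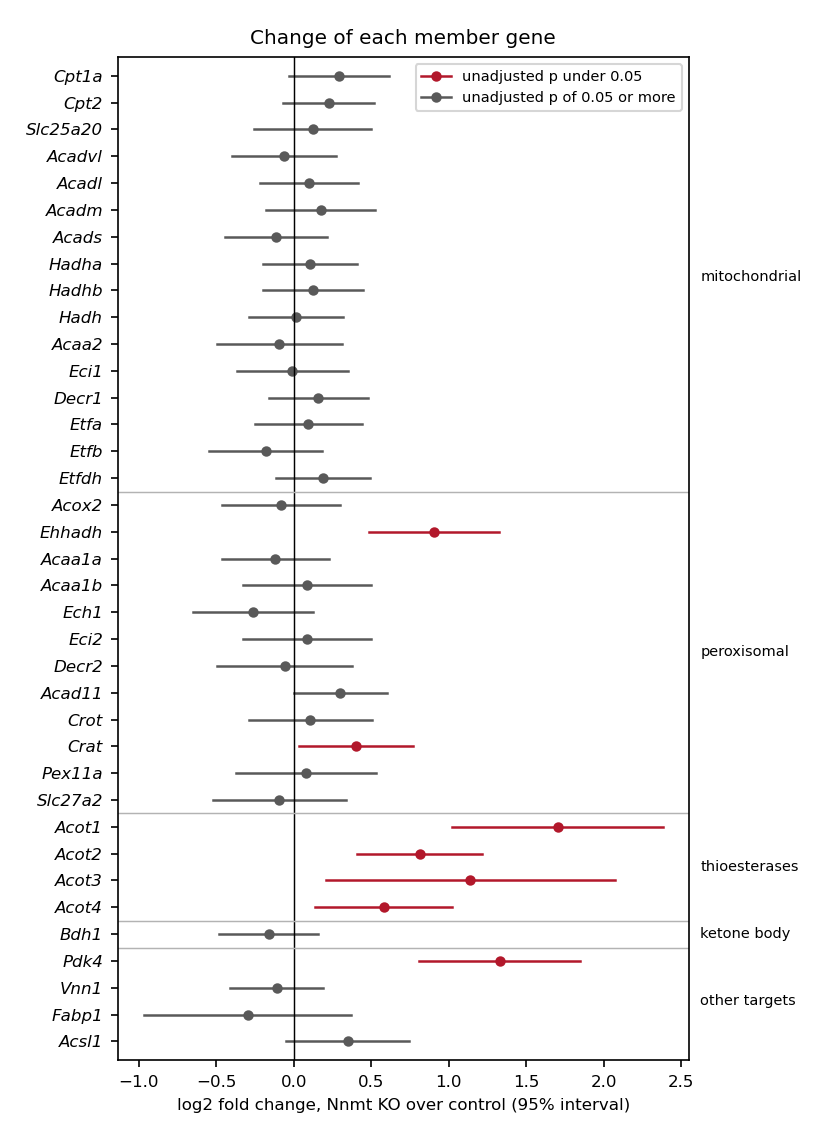
Log2 fold change of each of the 37 members, Nnmt KO over control, with its 95% interval from edgeR's test (x axis) by gene (y axis), in the 5 groups named at the right. Red marks the 7 members with an unadjusted p under 0.05, which are all higher; the 16 mitochondrial members all cross 0.

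The widest movement was in the thioesterase cluster on chromosome 12, where Acot1 to Acot4 lie side by side on the plus strand. Acot1 encodes the cytosolic enzyme of the family, Acot2 the mitochondrial one, and Acot3 and Acot4 peroxisomal ones. Each splits an acyl-CoA into a free acid and CoA, and the acyl-CoA used is not the same for all 4. All 4 were higher in Nnmt KO mice by the unadjusted test, and their median log2 fold change was 0.98. The 120 bases upstream of each gene are shown because these neighbours moved the same way and because PPARα with RXR is known to bind a pair of AGGTCA copies in the same direction with 1 base between (DR1). They are RefSeq's GRCm38.p6 sequence 5′ to 3′ on the gene's strand, and end just before the first annotated start. Capitals mark a match to AGGTCA, any base (N) and AGGTCA again, on either strand, with at most 2 mismatches in all.
Acot2 (chr12:83987741-83987860): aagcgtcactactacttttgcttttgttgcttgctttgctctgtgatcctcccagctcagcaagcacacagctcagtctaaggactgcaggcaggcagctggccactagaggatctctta
Acot1 (chr12:84009370-84009489): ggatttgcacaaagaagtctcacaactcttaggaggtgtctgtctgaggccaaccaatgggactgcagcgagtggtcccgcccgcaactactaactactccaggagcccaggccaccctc
Acot4 (chr12:84038259-84038378): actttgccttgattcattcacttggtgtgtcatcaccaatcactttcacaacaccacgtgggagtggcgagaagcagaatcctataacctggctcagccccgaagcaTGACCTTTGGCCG
Acot3 (chr12:84052024-84052143): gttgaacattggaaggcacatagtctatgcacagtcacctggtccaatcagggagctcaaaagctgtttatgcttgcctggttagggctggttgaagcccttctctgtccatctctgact
Of the 4, Acot4 holds such a match, 13 bases before the start and with 2 mismatches. The other 3 windows hold none, which says only that these letters are not there.

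Acot1 (chr12:84009490-84018371) was at 58.7, 79.8, 94.2 and 107 CPM in Nnmt KO libraries a to d and at 27.2, 33.4, 32.8 and 10.9 CPM in control libraries a to d. The groups were apart, with the lowest Nnmt KO library well above the highest control library. The means were 84.9 ± 20.7 CPM and 26.1 ± 10.5 CPM (SD, n = 4 each), a 3.25-fold difference. Its log2 fold change of 1.70 (SE 0.31, unadjusted p = 0.000176, adjusted p = 0.0528 in edgeR's test) exceeded that of 99.5% of all genes tested. Leaving out control d, which held the lowest value, gave 1.45 (adjusted p = 0.0293).

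Acot2 (chr12:83987861-83993873) was at 52.8, 52.6, 59.6 and 63.3 CPM in Nnmt KO mice and at 39.4, 28.6, 40.4 and 21.4 CPM in control mice. The Nnmt KO libraries lay close together, and all of them were above the controls. For Acot2 the log2 fold change was 0.81 (SE 0.18, unadjusted p = 0.000991, adjusted p = 0.0907 in edgeR's test).

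Acot3 (chr12:84052144-84060402) was at 67.1, 90.6, 95.9 and 74.1 CPM in Nnmt KO mice and at 66.0, 49.6, 22 and 11.1 CPM in control mice. Control levels were scattered, and control a reached almost to the lowest Nnmt KO library. The log2 fold change of 1.14 had an SE of 0.43 (unadjusted p = 0.0212, adjusted p = 0.292 in edgeR's test), and without control c it was 0.96 with an unadjusted p of 0.0593.

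Acot4 (chr12:84038379-84048601) was at 52.3, 72.8, 75.7 and 69.3 CPM in Nnmt KO mice and at 60.5, 51.2, 38.6 and 30.2 CPM in control mice. Here the groups overlapped, as Nnmt KO a lay below control a. Acot4 had a log2 fold change of 0.58 (SE 0.20, unadjusted p = 0.0146, adjusted p = 0.254 in edgeR's test).

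The 4 genes resemble each other, so a read could be given to the wrong one. Of all 150-base stretches of Acot1 transcripts, 9.68% also occur in Acot2 transcripts and 12.2% in any neighbouring Acot gene, while the share was 2.6% for Acot3 and 0 for Acot4. Summing over the 4 genes removes wrong assignment among them, but not between them and other genes. The summed levels were 231, 296, 325 and 314 CPM in Nnmt KO mice and 193, 163, 134 and 73.5 CPM in control mice. The sums did not overlap, and the log2 fold change was 1.05 (SE 0.25, unadjusted p = 0.00137, adjusted p = 0.104 in edgeR's test). Acot5 and Acot6, further along the same strand and looked at after these values were seen, had log2 fold changes of 0.69 (unadjusted p = 0.196, at most 1.36 CPM in any library) and 0.04 (unadjusted p = 0.858, at most 2.32 CPM). The antisense transcript 4732463B04Rik, also looked at afterwards, overlaps Acot4 and Acot3 and had a log2 fold change of 0.87 (unadjusted p = 0.00454, adjusted p = 0.162 in edgeR's test), with 1.96 to 3.67 CPM in Nnmt KO mice and 1.17 to 1.84 CPM in control mice. As it is not stated whether counting used strand, its reads and those of the genes it overlaps cannot be told apart. The 101 tested genes within 5 Mb of Acot1 had a median log2 fold change of 0.08.

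**Figure D2:**
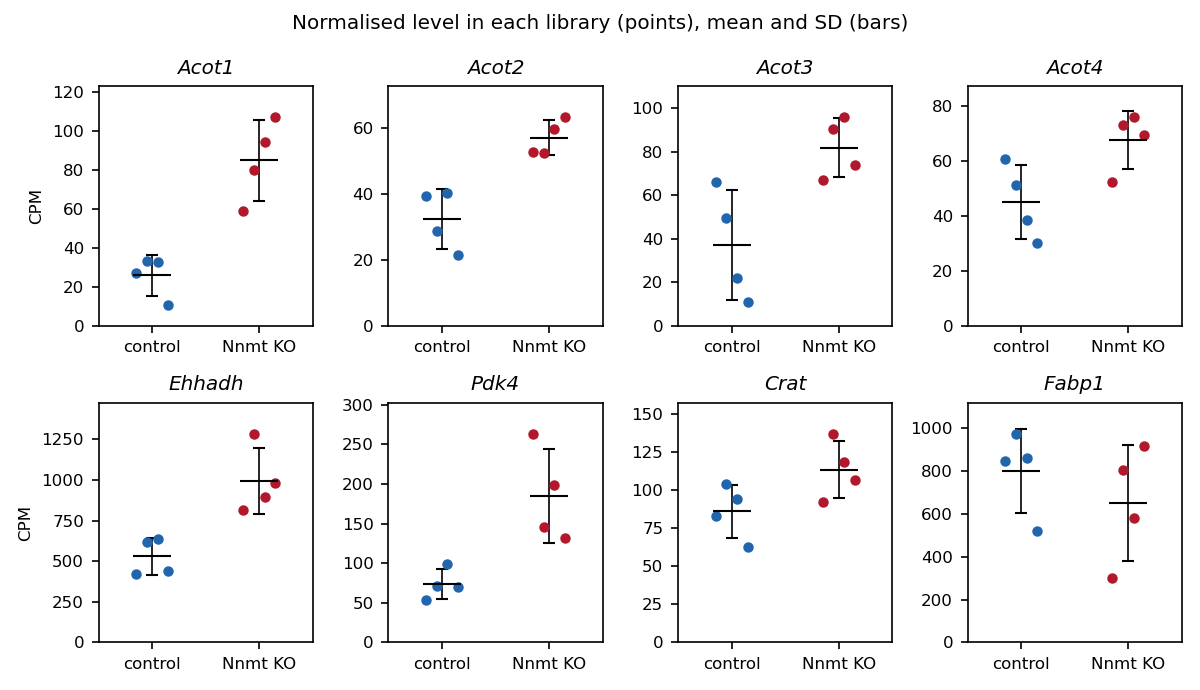
Level in CPM (y axis, from 0) of 8 members in control and Nnmt KO libraries (x axis), with each point 1 library in the order a to d and bars the mean and SD of 4 libraries. Acot1, Acot2, Acot3, Ehhadh and Pdk4 do not overlap between genotypes, while Acot4, Crat and Fabp1 do.

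Among the peroxisomal members, Ehhadh moved most. It encodes the bifunctional enzyme that carries out the hydratase and dehydrogenase steps of peroxisomal β-oxidation and is a classical PPARα target. Its start region is given for comparison with the cluster above, in the same form, on the minus strand of chromosome 16, and holds no match.
Ehhadh (chr16:21787835-21787954): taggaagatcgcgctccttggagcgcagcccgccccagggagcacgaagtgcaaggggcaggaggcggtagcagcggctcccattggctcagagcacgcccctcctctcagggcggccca
Ehhadh (chr16:21761287-21787807) was at 814, 1284, 895 and 980 CPM in Nnmt KO libraries a to d and at 423, 617, 639 and 442 CPM in control libraries a to d. Every Nnmt KO library was above every control library. The means were 993 ± 205 CPM and 530 ± 113 CPM (SD, n = 4 each), a 1.87-fold difference. The log2 fold change was 0.91 (SE 0.19, unadjusted p = 0.000576, adjusted p = 0.0725 in edgeR's test), above that of 96.9% of all genes, and the adjusted p was 0.0366 without Nnmt KO a.

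Crat encodes carnitine acetyltransferase, which moves acetyl groups between CoA and carnitine in peroxisomes and mitochondria. It was at 92.2, 137, 118 and 107 CPM in Nnmt KO mice and at 83.2, 104, 94.2 and 63.0 CPM in control mice. The groups overlapped through Nnmt KO a, which lay below controls b and c. For Crat this gave a log2 fold change of 0.40 (SE 0.17, unadjusted p = 0.0357, adjusted p = 0.351 in edgeR's test), and without control d it was 0.28 with an unadjusted p of 0.0963.

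The other 10 peroxisomal members did not pass an unadjusted p of 0.05 in edgeR's main test. Acad11, an acyl-CoA dehydrogenase of long chains, was near that threshold, at 162, 237, 228 and 222 CPM in Nnmt KO mice and 181, 186, 168 and 154 CPM in control mice. Nnmt KO a lay among the controls, and the other 3 were above them. Its log2 fold change was 0.30 (SE 0.14, unadjusted p = 0.05 after rounding, adjusted p = 0.397 in edgeR's test). It passed in 8 of 13 alternatives, DESeq2's test among them (unadjusted p = 0.0345). Among the oxidation enzymes, the log2 fold change was −0.08 for Acox2, the oxidase of branched chains and bile acid precursors. It was −0.12 for Acaa1a and 0.09 for Acaa1b, both thiolases, which share 8.59% and 13.3% of their 150-base stretches and gave 0.04 when summed. The auxiliary enzymes of unsaturated chains had −0.26 (Ech1), 0.08 (Eci2) and −0.06 (Decr2). Of the handling genes, the difference was 0.11 for Crot, which makes medium-chain acylcarnitine, 0.08 for Pex11a, which promotes peroxisome division, and −0.09 for Slc27a2, which activates very long chains. The whole group had 7 members higher and 5 lower, with a median of 0.08.

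**Figure D3:**
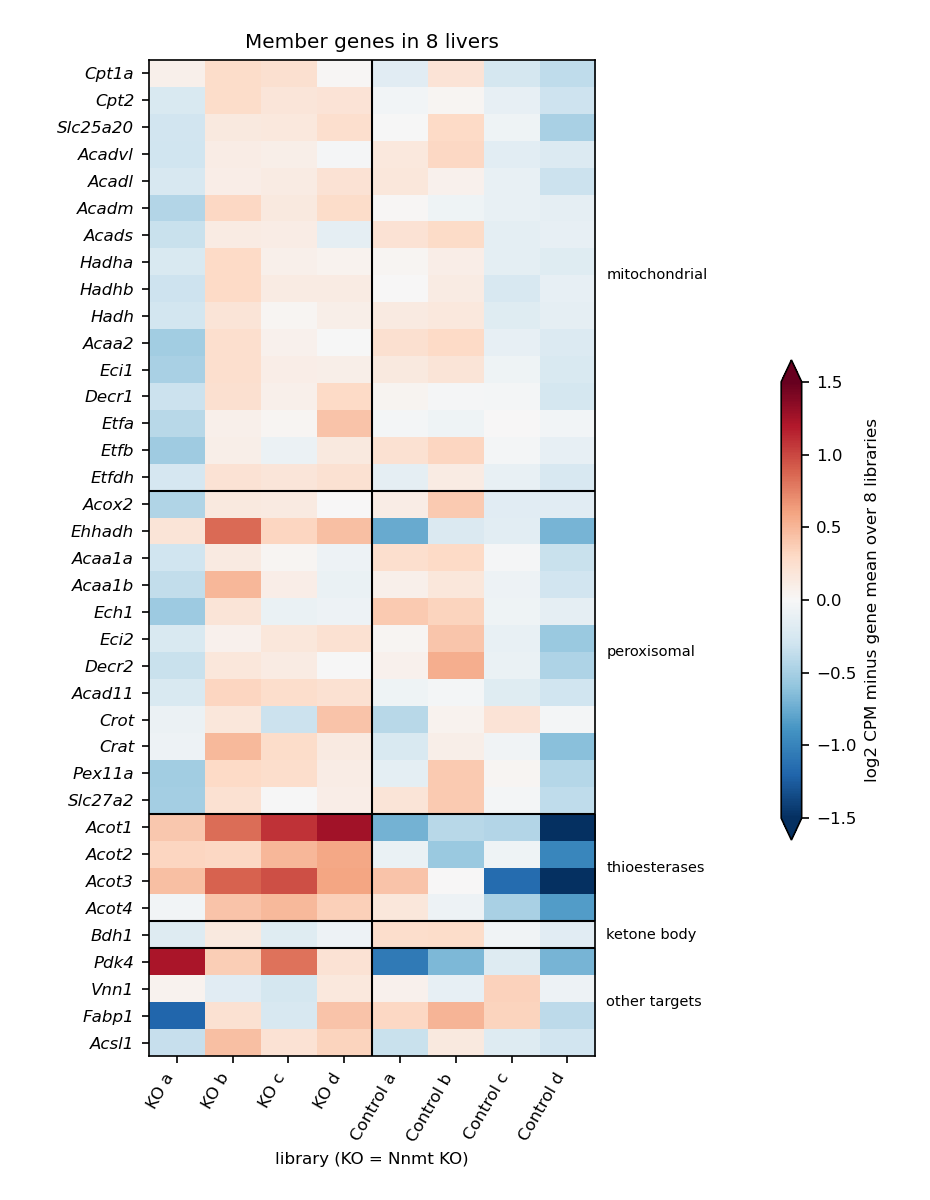
Level of the 37 members (y axis, in 5 groups) in the 8 libraries (x axis), as log2 CPM minus the gene's mean over the libraries, with red above and blue below that mean and values past 1.5 drawn in the end colours. Acot1, Acot2, Ehhadh and Pdk4 are red in every Nnmt KO library and blue in every control library, and the mitochondrial rows are pale, with Nnmt KO a mostly blue.

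The 16 mitochondrial members, which carry out entry and the oxidation cycle, differed little. In Nnmt KO mice, 11 were higher and 5 lower, 0 had an unadjusted p under 0.05, and the smallest adjusted p was 0.443, both by edgeR. Cpt1a alone passed that threshold in DESeq2's test (unadjusted p = 0.0458, adjusted p = 0.327). With scaling by library size only, edgeR's test called Cpt1a, Cpt2 and Etfdh before adjustment, and it called Cpt1a without control b. Their median log2 fold change was 0.10, and the extremes were −0.18 (Etfb) and 0.29 (Cpt1a). The 95% intervals together reached from −0.55 to 0.62, and 12 of the 16 lay wholly within 0.5 of 0. The estimate for Ehhadh (0.91) lay above all of these intervals. Its own 95% interval (0.49 to 1.32) overlapped the upper end of some of them, that of Cpt1a (up to 0.62) among them.

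Cpt1a, the gate of mitochondrial entry and the member of smallest p here, was at 622, 715, 695 and 598 CPM in Nnmt KO mice and at 525, 678, 493 and 452 CPM in control mice. Control b was as high as the Nnmt KO libraries, and the other 3 controls were below all of them. The log2 fold change was 0.29 (SE 0.15, unadjusted p = 0.0738, adjusted p = 0.443 in edgeR's test). The carriers after it, Slc25a20, which brings acylcarnitine across the inner membrane, and Cpt2, which turns it back into acyl-CoA, had log2 fold changes of 0.12 and 0.23.

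The acyl-CoA dehydrogenases, which open the cycle at different chain lengths, had log2 fold changes of −0.06 (Acadvl, very long), 0.10 (Acadl, long), 0.17 (Acadm, medium) and −0.12 (Acads, short). The later steps were at 0.10 and 0.13 for Hadha and Hadhb, the subunits of the trifunctional protein, 0.02 for Hadh and −0.09 for the thiolase Acaa2. Eci1 and Decr1, needed for unsaturated chains, had −0.01 and 0.16. The electron transfer flavoprotein, which takes electrons from the dehydrogenases, had 0.09 for its subunit Etfa, −0.18 for Etfb, and 0.19 for Etfdh, its outlet to the respiratory chain. Without Nnmt KO a, Cpt2 (0.33, unadjusted p = 0.0156), Acadm (0.32, unadjusted p = 0.0137), Etfdh (0.29, unadjusted p = 0.0291) and Decr1 (0.27, unadjusted p = 0.0385) passed the unadjusted threshold in edgeR's test, with adjusted p between 0.226 and 0.343.

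Bdh1, the ketogenic member, encodes the enzyme that converts acetoacetate to β-hydroxybutyrate. It was at 390, 495, 395 and 422 CPM in Nnmt KO mice and at 536, 542, 430 and 396 CPM in control mice. The groups overlapped, with controls a and b the highest. Bdh1 had a log2 fold change of −0.16 (SE 0.14, 95% interval −0.48 to 0.15, unadjusted p = 0.285, adjusted p = 0.683 in edgeR's test). The other genes of ketone bodies, which are no members, gave no call either, with 0 of 6 under 0.05 before adjustment in edgeR and in DESeq2.

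Of the remaining targets, Pdk4 had the largest difference. It encodes the kinase that shuts pyruvate dehydrogenase when fat is burned instead of glucose, and it responds to fasting and glucocorticoids as well as to PPARα. The upstream window of Pdk4, on the minus strand of chromosome 6, is shown with that of Fabp1, on the plus strand of the same chromosome. The pair was picked because they differ in both the motif and the measured difference, so no relation between these can be read from it.
Pdk4 (chr6:5496310-5496429): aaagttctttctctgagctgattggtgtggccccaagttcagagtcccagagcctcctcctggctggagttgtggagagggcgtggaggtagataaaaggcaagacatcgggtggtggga
Fabp1 (chr6:71199707-71199826): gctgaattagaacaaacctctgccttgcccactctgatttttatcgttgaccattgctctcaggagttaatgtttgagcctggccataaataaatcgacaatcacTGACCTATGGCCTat
Fabp1 carries the repeat with 1 mismatch, 67 bases before RefSeq's start, and Pdk4 carries none in its window.

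Pdk4 (chr6:5483351-5496309) was at 263, 145, 198 and 132 CPM in Nnmt KO libraries a to d and at 54.0, 70.8, 99.2 and 69.8 CPM in control libraries a to d. All Nnmt KO libraries were above all controls, and Nnmt KO a, low for most other members, was the highest here. The means were 185 ± 59.7 CPM and 73.4 ± 18.8 CPM (SD, n = 4 each), a 2.51-fold difference. On the log2 scale the difference was 1.33 (SE 0.24, unadjusted p = 0.000147, adjusted p = 0.0496 in edgeR's test), above that of 98.9% of all genes. Without Nnmt KO a it was 1.11 (adjusted p = 0.0324), and without control d it was 1.31 (adjusted p = 0.0943).

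Fabp1, the fatty acid binding protein of the hepatocyte cytosol, was at 300, 802, 580 and 917 CPM in Nnmt KO mice and at 846, 972, 857 and 520 CPM in control mice. The groups overlapped widely, with Nnmt KO a the lowest of all. The log2 fold change was −0.30 with an SE of 0.31 (95% interval −0.97 to 0.37, unadjusted p = 0.35, adjusted p = 0.727 in edgeR's test), the widest error but those of Acot1 and Acot3. Acsl1, the main hepatic acyl-CoA synthetase, had 0.35 (SE 0.18, unadjusted p = 0.0784), and 0.49 without Nnmt KO a (unadjusted p = 0.00481, adjusted p = 0.147 in edgeR's test). Vnn1, a pantetheinase, had −0.11 (SE 0.14, unadjusted p = 0.432).

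On a per-length scale, with the mean CPM divided by the exon length in kilobases, the members spanned a wide range of levels. Fabp1 was the highest in control mice at 1445 CPM per kb, followed by Acaa2 (510), Acaa1b (403), Etfb (277), Acadvl (183) and Ehhadh (178). The cluster closed the order in controls, with Acot2 at 14.8, Acot3 at 10.8, Acot4 at 6.76 and Acot1 at 6.66 CPM per kb. In Nnmt KO mice, Acot1 reached 21.7 CPM per kb, Pdk4 went from 20.9 to 52.6 and from rank 31 to rank 21, and Ehhadh went from 178 to 333 and from rank 6 to rank 4. Among the 7 members with an unadjusted p under 0.05, all but Ehhadh therefore belonged to the 7 lowest of the set in control mice.

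Libraries of 1 genotype differed from each other in most members at once. Nnmt KO a was the lowest of its genotype for 32 of the 37 members and the lowest of all 8 libraries for 20. Control d was the lowest of its genotype for 28 members and the lowest of all for 13. These were the 2 libraries with the highest summed macrophage markers, as given above. They were also the highest in summed neutrophil markers, at 24.6 and 21.0 CPM against 8.97 to 13.7 CPM in the other libraries. Of these markers, Retnlg in control d (0.868 CPM) lay within the range of the others. Nnmt KO a was also the lowest of all 8 in summed hepatocyte markers (65311 CPM) and the highest in summed stellate cell and bile duct markers. Control d held 90415 CPM of hepatocyte markers, above control c (76002 CPM), and was the highest in summed endothelial markers (277 CPM). The part of these cells in the members' levels was not tested. Without Nnmt KO a and control d, a setting chosen after the data were seen, 11 members passed an unadjusted p of 0.05, all of them higher in Nnmt KO mice, against 14.4% of all genes in either direction. The difference was then 1.60 for Acot1 (adjusted p = 0.00194), 1.10 for Pdk4 (adjusted p = 0.0566), 0.93 for Ehhadh (adjusted p = 0.0649), 0.71 for Acot2 (adjusted p = 0.0673), 0.93 for Acot3 (adjusted p = 0.218), 0.55 for Acot4 (adjusted p = 0.162) and 0.38 for Crat (adjusted p = 0.237) in edgeR's test. The additional members were Cpt2, Acadm, Acad11 and Acsl1.

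**Figure D4:**
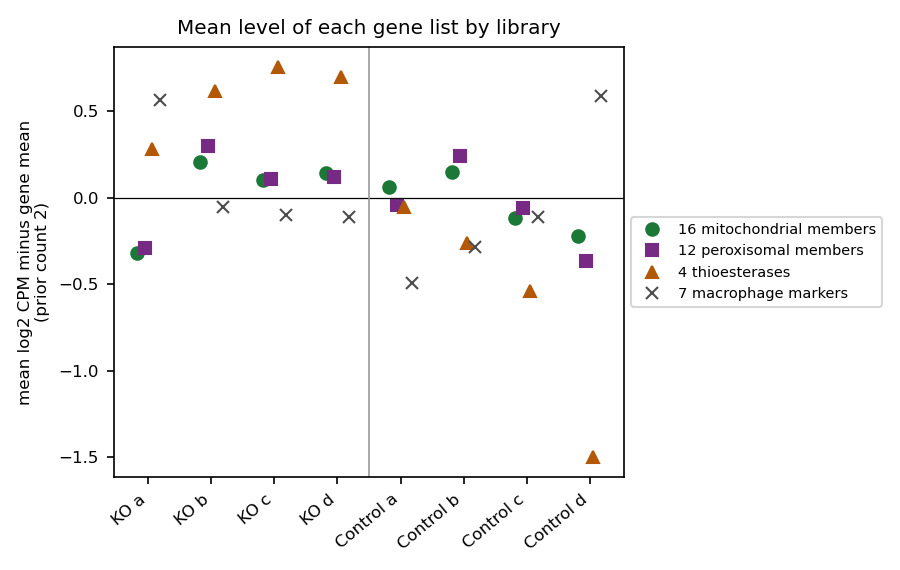
Mean over each list of log2 CPM minus the gene's mean over 8 libraries (y axis; prior count 2) in each library (x axis), for 3 groups of members and the macrophage markers. Mitochondrial and peroxisomal members are low in Nnmt KO a (−0.32 and −0.29) and control d (−0.22 and −0.37), where the mean of the macrophage markers is high (0.56 and 0.59), while the thioesterases are above 0 in every Nnmt KO library and below 0 in every control library.

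Ratios within a library need no scaling between libraries. Relative to the summed counts of the 16 mitochondrial members, the counts of Acot1 to Acot4 came to 4.99% to 5.93% in Nnmt KO mice and 1.67% to 3.58% in control mice. Nnmt KO a, at 5.55%, was not low on this measure. Ehhadh came to 16.3% to 21.7% against 7.85% to 13.7%, and Pdk4 to 2.39% to 6.32% against 1% to 2.13%, again without overlap. Crat ran from 1.94% to 2.31% against 1.43% to 2.03%, Cpt1a from 10.9% to 15% against 9.74% to 11.8%, and Fabp1 from 7.21% to 16.7% against 11.8% to 18.5%, all overlapping. These ratios show an unequal difference of the numerator and the mitochondrial sum, not which of them moved.

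Genes around the members were taken from lists of 82 further genes, of which 5 were higher and 4 lower before adjustment, beside the 12.6% of all genes given above, and 0 after adjustment in edgeR's test. Their median log2 fold change was 0.05. DESeq2's test gave 8 higher and 3 lower before adjustment, where it called 14.2% of all genes, and 4 after it, where it called 3.32%, namely Ppargc1a (adjusted p = 0.00106), Slc22a5 (0.00931), Fgf21 (0.0118) and Nudt7 (0.0154).

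Among 12 regulators, no difference of the receptor itself was detected. Ppara ran from 77.9 to 129 CPM in Nnmt KO mice and from 77.0 to 124 CPM in control mice, with a log2 fold change of 0.10 (95% interval −0.32 to 0.53, unadjusted p = 0.605). Its partner Rxra had −0.07, the corepressor Ncor1 0.08, and the related receptor Esrra 0.08, none with an unadjusted p under 0.4. Ppargc1a, which encodes the coactivator PGC-1α of fasting and mitochondrial genes, was at 15.4, 18.5, 23.1 and 26.6 CPM in Nnmt KO mice and at 12.9, 12.3, 10.4 and 11.8 CPM in control mice. All Nnmt KO libraries were above all controls, and the log2 fold change was 0.82 (SE 0.17, unadjusted p = 0.000409, adjusted p = 0.0711 in edgeR's test). Lpin1, a phosphatidate phosphatase that also acts with PGC-1α, was at 275, 616, 751 and 492 CPM against 206, 495, 277 and 189 CPM. Control b lay above Nnmt KO a and d, and the log2 fold change was 0.87 (SE 0.34, unadjusted p = 0.027, adjusted p = 0.317 in edgeR's test), or 0.71 with an unadjusted p of 0.077 without control d.

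The further PPARα targets were called in both directions. Of 16, Slc22a5, the carnitine transporter, had 0.96 (SE 0.25, unadjusted p = 0.00281, adjusted p = 0.127), Cyp4a10, which ω-hydroxylates fatty acids, 0.66 (unadjusted p = 0.0209), and Aldh3a2, a fatty aldehyde dehydrogenase, 0.30 (unadjusted p = 0.0362) in edgeR's test. Of 13 alternatives, Aldh3a2 lost this call in 6 and Cyp4a10 in 3, as did Lpin1 in 5. Fgf21 encodes a hepatic hormone that responds to PPARα in fasting and to the integrated stress response, and it went the other way. It was at 24.3, 15.9, 14.8 and 17.4 CPM in Nnmt KO mice and at 32.8, 35.4, 41.4 and 20.7 CPM in control mice. Only Nnmt KO a and control d crossed. Its log2 fold change was −0.85 (SE 0.21, unadjusted p = 0.00209, adjusted p = 0.116 in edgeR's test), and −1.17 without those libraries (adjusted p = 0.00542).

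Of 16 further mitochondrial enzymes of fatty acids, edgeR called 0 and DESeq2 called 1 (Acacb) before adjustment. In edgeR Acacb, which makes the malonyl-CoA that blocks Cpt1a, had the smallest p of this list (log2 fold change 0.37, unadjusted p = 0.0503). Of 19 peroxisomal oxidation genes, 0 were higher before adjustment in edgeR, while DESeq2 called 1 higher, Abcd3, an importer of fatty acyl-CoA. Nudt7 was lower in both tools. Nudt7, a peroxisomal hydrolase of CoA, ran from 59.5 to 84 CPM in Nnmt KO mice and from 87.7 to 112 CPM in control mice, without overlap (log2 fold change −0.52, SE 0.13, unadjusted p = 0.0022, adjusted p = 0.119 in edgeR's test). Of 15 genes of peroxisome assembly, Pex11g was lower (log2 fold change −0.53, unadjusted p = 0.019, adjusted p = 0.28 in edgeR's test, and not called without control a or control b) and 0 were higher in either tool, with a median of −0.08.

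**Figure D5:**
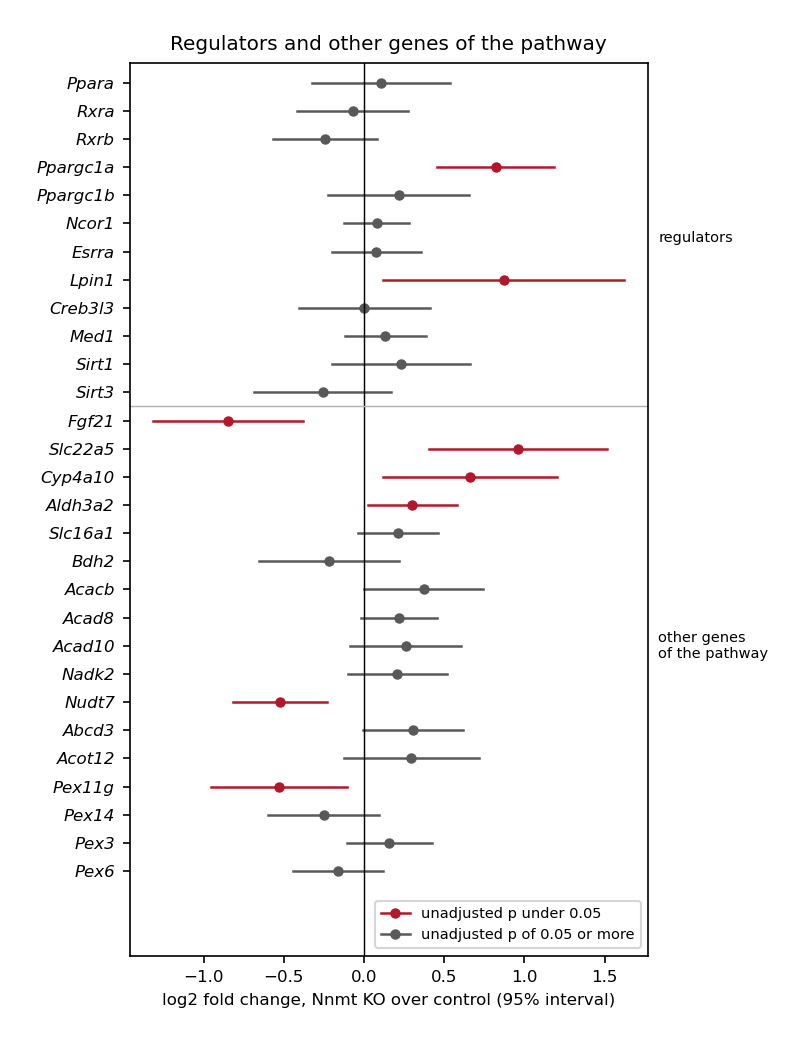
Log2 fold change, Nnmt KO over control, with its 95% interval from edgeR's test (x axis), for 12 regulators and, of each other list, up to 4 genes of smallest p (y axis). Red marks an unadjusted p under 0.05, with Ppargc1a, Lpin1, Slc22a5, Cyp4a10 and Aldh3a2 higher and Fgf21, Nudt7 and Pex11g lower.

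A promoter window, from 250 bases before to 50 after a RefSeq start, was found for 33 of the 37 members. The repeat DR1, spelled AGGTCA, N and AGGTCA, with up to 2 mismatches on either strand, occurred in 5 of the 33 (15.2%) and in 4.4% of 27025 genes. They were Slc25a20, Etfa, Acox2, Acot4 and Fabp1, whose log2 fold changes ran from −0.30 to 0.58, and only Acot4 among them had an unadjusted p under 0.05. The element TCAAGGTCA of estrogen-related receptors, with up to 1 mismatch on either strand, occurred in 4 of the 33 (12.1%), Acaa1b, Ech1, Acot3 and Bdh1, and in 8.46% of all genes. A single AGGTCA, which lies within both motifs, was present in 7 of the 33 (21.2%) and in 18.1% of all genes. These are matches of letters in a short window, and binding was not measured.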

How the data were processed

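Liver RNA-seq of 4 Nnmt KO mice and 4 control mice was used. The values deposited by the authors are raw read counts for each gene, as whole numbers. The submitters' processing notes name HISAT2, StringTie and mm10; annotation, counting settings and strand are not given in the sources used here. The study's methods name a KAPA kit and the labels a NEBNext kit. Columns carry genotype but no mouse number, so libraries were lettered in column order; 0 columns were left out. The members and all gene lists were chosen with earlier results of these data known.

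Genes were kept with filterByExpr (minimum count 10), which left 15291 of 33212, scaled by TMM (factors 0.876 to 1.21) and tested in 1 fit over all genes by genotype with the quasi-likelihood test of edgeR 4.0.16 in R 4.3.3. Adjusted p-values are Benjamini-Hochberg over all genes tested, and the threshold was 0.05. SEs and 95% intervals are those implied by the F statistic. The p-values set each difference against the spread between these mice, which was estimated with information shared over all genes. The precision is set by 4 mice per genotype, as each library held at least 75020072 counts. Positions and exon lengths are from GENCODE M21 of GRCm38, and promoters from RefSeq GRCm38.p6.

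Named were all members, Nnmt, every regulator tested, and up to 4 genes of smallest p in each other list, of which some are left out here. Values in every library are given for members with an unadjusted p under 0.05 and the smallest p of each group. Tests were first tried on simulated data. Alternatives were DESeq2 1.42.0 and its size factors, library size only, no filter, summed paralogs, and each library left out. The study's experiments on other diets, proteins and metabolites were not analysed here.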

Additional observations from a re-analysis of the deposited data

Results flagged for a closer look

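In each genotype, a library was looked for whose distance from its nearest neighbour took up more of the range of the 4 libraries than Dixon's 95% limit. Of 112 groups of 4 values examined, 2 passed, where chance gives 5.6. Etfdh, the outlet of the electron transfer flavoprotein, was at 167 CPM in Nnmt KO a and at 225 to 234 CPM in the other 3 Nnmt KO libraries. The TMM factor of Nnmt KO a was 1.21, against 0.952 to 0.977 in the other 3. Both values belong to the library that was lowest of its genotype for 32 members.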

How the results depend on the processing

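In every setting tried, each member with an unadjusted p under 0.05 was higher in Nnmt KO mice. Their number was 7 in the main test (12.6% of all genes were called there) and 12 with library size only (9.4%). It was 11 without Nnmt KO a and control d (14.4%), a setting chosen after the data were seen. With paralogs summed it was 4, by construction, as the 4 Acot genes became 1. With each library left out it was 6 to 13, where 8.08% to 14.1% of all genes were called. The 13 came without Nnmt KO a (13.3%). The number with an adjusted p under 0.05 was 1 in the main test (0.32% of all genes). It was 0 with DESeq2's size factors (0.196%) and 0 without a filter (0.0385%). DESeq2's test gave 4 (3.32%), namely Acot1, Pdk4, Ehhadh and Acot2. With each library left out the number was 0 to 3, where 0.0385% to 0.963% of all genes were called. Without a filter 20798 genes were tested; the other causes were not tested. The adjusted p ranged over the 13 alternatives from 1.17e-05 to 0.216 for Pdk4, 7.99e-06 to 0.216 for Acot1, 0.000324 to 0.264 for Ehhadh and 0.00349 to 0.231 for Acot2. The median of the members stayed between 0.01 and 0.21.

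Of the members called, Crat lost its call without control a, control d, Nnmt KO b or Nnmt KO c, and Acot3 without control c. Differences near 0 changed sign. Eci1 became 0.034 and Decr2 0.0082 with library size only, and Eci1 0.064 without Nnmt KO a and control d. With each library left out, the log2 fold change ran from −0.10 to 0.13 for Eci1, −0.20 to 0.16 for Decr2, −0.14 to 0.048 for Acadvl, −0.20 to 0.041 for Acaa2, −0.15 to 0.060 for Acox2, −0.22 to 0.043 for Slc27a2, −0.047 to 0.10 for Hadh, −0.093 to 0.21 for Acaa1b, −0.036 to 0.25 for Pex11a, −0.052 to 0.22 for Etfa, −0.035 to 0.22 for Crot, −0.0017 to 0.26 for Slc25a20, −0.060 to 0.27 for Eci2 and −0.0090 to 0.25 for Ppara. No paired analysis was possible because the count columns carry no replicate numbers. With 4 mice per genotype, the median SE of a member's log2 fold change was 0.17.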
